A study of Mus musculus with 2 samples.

Results

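The 3 genes described here were measured by single cell RNA sequencing (scRNAseq) of mouse kidney, and are *Spp1*, which encodes osteopontin, *Cd44*, which encodes a receptor of osteopontin and hyaluronan, and *Clu*, which encodes clusterin. They were taken by symbol from the gene list of the deposited count matrices, and are 3 of 32285 genes. The first library came from a kidney subjected to left-sided unilateral ischemia of 27 min with reperfusion of 24 h (ischemia), and the other from the uninjured contralateral kidney (control). Both kidneys were from male wildtype C57BL/6J mice of 19 weeks, and the design text speaks of a single mouse. If so, the control kidney came from an animal that also carried an injured kidney. With only 1 library per condition, ischemia and library cannot be told apart. Cells with at least 200 genes, 500 to 150000 UMIs (unique molecular identifiers, each standing for 1 captured RNA molecule) and at most 55% mitochondrial UMIs were kept, which left 12586 of 15110 control barcodes and 13116 of 15257 ischemia barcodes.

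Osteopontin is a secreted, acidic phosphoprotein that binds integrins and CD44. In kidney it is made mainly by tubule epithelium, and it is known as a gene that injured tubules switch on. CD44 is a cell surface glycoprotein of leukocytes and of some injured epithelia, and its main ligand is hyaluronan. Clusterin is a secreted chaperone that binds misfolded proteins and lipids, restrains complement, and is widely used as a marker of tubule injury. In the GENCODE M21 annotation of GRCm38, *Spp1* (ENSMUSG00000029304) spans chr5:104435118-104441050 (plus strand). *Cd44* (ENSMUSG00000005087) spans chr2:102811141-102901665 (minus strand), and *Clu* (ENSMUSG00000022037) spans chr14:65968483-65981547 (plus strand). *Spp1* overlaps 1 other annotated gene on its own strand, with which reads could be shared. The annotation gives 7 protein-coding transcripts for *Spp1*, 8 for *Cd44* and 6 for *Clu*, and counts per gene do not tell these apart.

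*Spp1* and *Cd44* are printed with the 250 bases before and the first 50 bases after their start (RefSeq, GRCm38.p6, chr5:104434861-104435160 on the plus strand and chr2:102901616-102901915 on the minus strand), because their levels differed between the libraries in unlike ways. Capitals mark matches, on either strand, to TATAAA for a TATA box or to AACCACA for a Runx site or to CCAAT for a CCAAT box. The letters TGANTCA for an AP-1 site were also searched and were found in neither window. These windows were 2 of the 3 members' promoters, since *Clu* had no entry.
Spp1: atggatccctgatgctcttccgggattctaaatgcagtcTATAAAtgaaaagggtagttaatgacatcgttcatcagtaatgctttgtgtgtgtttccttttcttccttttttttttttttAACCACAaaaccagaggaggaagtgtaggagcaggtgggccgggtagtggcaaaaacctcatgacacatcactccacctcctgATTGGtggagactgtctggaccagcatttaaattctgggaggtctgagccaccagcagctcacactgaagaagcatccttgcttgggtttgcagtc
Cd44: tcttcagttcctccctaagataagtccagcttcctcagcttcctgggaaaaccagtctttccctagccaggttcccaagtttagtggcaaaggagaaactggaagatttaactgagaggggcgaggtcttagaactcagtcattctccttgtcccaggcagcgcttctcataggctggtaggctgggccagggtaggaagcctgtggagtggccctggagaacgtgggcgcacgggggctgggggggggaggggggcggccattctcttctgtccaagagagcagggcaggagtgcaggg
The *Spp1* window held TATAAA beginning 211 bases before the start, AACCACA beginning 129 bases before it and ATTGG, the reverse complement of CCAAT, beginning 46 bases before it. The *Cd44* window held none of the 4 motifs. Of 32851 promoter windows of this length, 13.6% held a TATAAA match, 5.27% an AACCACA match, 37.4% a CCAAT match and 7.81% a TGANTCA match. A match is a description of the letters only.

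Cells of both libraries were joined by anchor integration and clustered, with the 3 genes and 45 related genes kept out of the clustering. Of the clusters, 16 of 19 were named from marker genes, which gave 12 classes. These were proximal tubule-like (PT-like), thin limb-like, thick ascending limb-like (TAL-like), distal convoluted and connecting tubule-like (DCT-CNT-like), collecting duct principal cell-like (CD-PC-like) and intercalated cell-like (CD-IC-like) cells, together with podocyte-, endothelial (EC)-, pericyte-, macrophage-, neutrophil (PMN)- and T cell-like cells. No cluster was named as injured PT, and the CD-PC-like cluster also listed *Aqp6*, a gene of type A intercalated cells, among its leading genes. Kept cells held 124679362 UMIs in control and 128733541 in ischemia, with medians of 3839 and 2138.5 UMIs per cell. The libraries shared 58 kept barcodes, 0.461% of those of control. Cluster 0, of low depth (4582 control and 5801 ischemia cells, median 836 UMIs), stayed unnamed, as did clusters 4 and 16. A level is given as UMIs of the gene per 1000000 UMIs of the cells (CPM), with 95% exact Poisson intervals, and a ratio is ischemia over control with a 95% exact interval. All intervals cover counting error only, no test between conditions was possible, and cells were not counted as replicates.

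Over all kept cells, *Spp1* was at 3290 CPM in control and at 25444 CPM in ischemia, a ratio of 7.73 (7.71 to 7.76). *Clu* was at 297 CPM in control against 2711 CPM in ischemia, a ratio of 9.14 (9.04 to 9.23). *Cd44* was at 17.9 CPM in control against 47.2 CPM in ischemia, a ratio of 2.63 (2.50 to 2.76). Thus all 3 genes were at least 2 times higher in the ischemia library, against 10.1% of the 18925 genes with at least 20 UMIs, while 4.77% of those genes were at least 2 times lower. *Spp1* moved from 20th to 6th place among all genes by UMIs, and *Clu* from 349th to 21st. When the class levels of ischemia were weighted by the UMI mix of control, the ratio was 7.87 for *Spp1* and 8.998 for *Clu* but only 1.15 for *Cd44*. At a fixed mix of classes, then, most of the excess of *Cd44* was no longer present, whereas that of *Spp1* and *Clu* was. The value for *Cd44* joins classes that went in opposite directions, such as PT-like cells (ratio 0.461) and macrophage-like cells (3.36). It does not mean that *Cd44* was alike within each class.

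**Figure D1:**
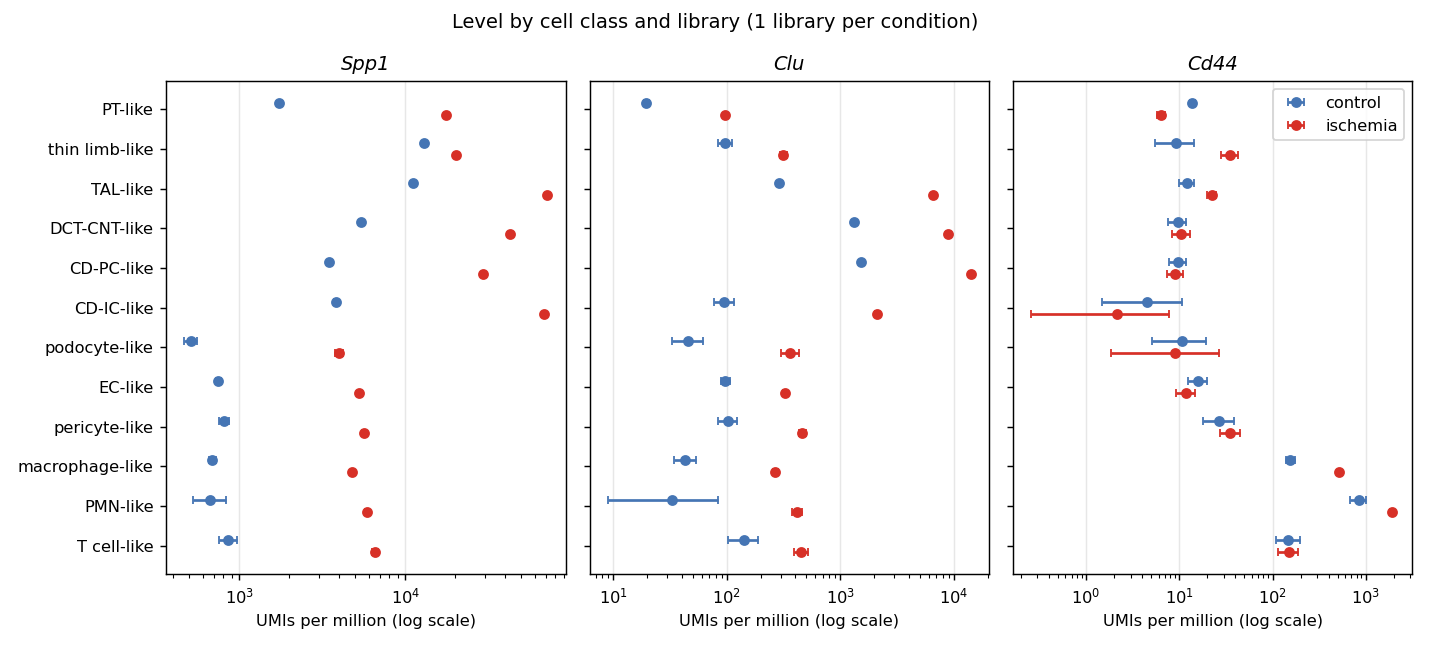
Level of *Spp1*, *Clu* and *Cd44* (x axis, CPM, log scale) in each of the 12 cell classes (y axis) in the control (blue) and ischemia (red) libraries. Points are 1 library each and bars are 95% exact Poisson intervals; *Spp1* and *Clu* lie further right in ischemia in all 12 classes, and *Cd44* lies furthest right in PMN-like cells.

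*Spp1* was most abundant in the cells of the loop of Henle in control and in the TAL in ischemia. In TAL-like cells, which make uromodulin and reabsorb salt, it was at 11047 CPM in control (500 cells) and 71726 CPM in ischemia (488 cells), a ratio of 6.49 (6.45 to 6.53). It thus made up 1.10% of the UMIs of control TAL-like cells and 7.17% of those of ischemia, where it ranked 1st among all genes, mitochondrial genes included. *Umod*, the uromodulin gene, went the other way in the same cells, at 12978 CPM in control against 8342 CPM in ischemia. The median TAL-like cell was at 5665 CPM of *Spp1* in control and at 69255 CPM in ischemia. Among cells with at most 25% mitochondrial UMIs the ratio was 4.78, as the 129 control TAL-like cells under that limit were at 16213 CPM and the 371 over it at 9903 CPM.

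In PT-like cells, the most numerous named class, *Spp1* was at 1741 CPM in control (3884 cells) and 17658 CPM in ischemia (2865 cells), a ratio of 10.1 (10.1 to 10.2). All 4 PT-like clusters showed a higher level in ischemia, with ratios between 8.37 and 14.2. PT-like cells held 30.5% of all *Spp1* UMIs in control and 36.8% in ischemia, and TAL-like cells 27.8% and 27.5%. In DCT-CNT-like cells *Spp1* was at 5430 and 42981 CPM (ratio 7.92), and in CD-PC-like cells at 3466 and 29466 CPM (ratio 8.50). The distal and collecting duct segments were therefore above PT in both libraries.

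CD-IC-like cells, whose leading genes *Slc26a4* and *Slc4a9* mark base-secreting intercalated cells, had the highest *Spp1* ratio, 17.8 (17.3 to 18.4), at 3815 CPM in 58 control cells and 67988 CPM in 46 ischemia cells, but 5 cells held 32.3% of the *Spp1* UMIs in ischemia and 40.5% in control. The acid-secreting type A cells sat in the CD-PC-like cluster, and with them taken in at a finer clustering resolution of 0.6 the CD-IC-like ratio was 15.1 (14.7 to 15.4). Thin limb-like cells had the lowest. They were at 12994 CPM in 103 control cells and 20286 CPM in 95 ischemia cells, a ratio of 1.56 (1.54 to 1.58). The top 5 cells held 33.7% and 32.9% of these UMIs, and by the median cell the levels were 5847 and 16156 CPM. The order of the classes by *Spp1* accordingly differed between libraries, from thin limb, TAL, DCT-CNT, CD-IC, CD-PC and PT in control to TAL, CD-IC, DCT-CNT, CD-PC, thin limb and PT in ischemia. The counting intervals of neighbours did not overlap, but they leave out the spread between cells. By the median cell, CD-IC-like cells (1784 CPM) were below CD-PC-like cells (1913 CPM) in control. In ischemia their median of 28005 CPM was below the 30157 CPM of DCT-CNT-like cells.

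*Spp1* was also counted in classes outside the tubule. EC-like cells were at 746 CPM in control against 5240 CPM in ischemia (ratio 7.02), podocyte-like cells at 510 and 3986 CPM (7.81), pericyte-like cells at 808 and 5621 CPM (6.95) and T cell-like cells at 857 and 6550 CPM (7.64). Below PT, the control levels of neighbouring classes in the order overlapped in their intervals. Macrophage-like cells, in which osteopontin is also a known product and whose cluster held a B cell-like sub-cluster of 40 control and 39 ischemia cells, were at 688 CPM in control against 4800 CPM in ischemia, a ratio of 6.98 (6.61 to 7.38), and hence below EC- and T cell-like cells in ischemia. Median depths in ischemia were 8260 UMIs in macrophage-like, 4255 in EC-like and 3405 in T cell-like cells, and the part of depth in this order was not tested. PMN-like cells were at 666 CPM in control, where they were 19 cells, and at 5851 CPM in 191 ischemia cells. With the exception of thin limb-like and CD-IC-like cells, the ratio lay between 6.49 and 10.1 in every class.

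Other tubule genes were counted in the same non-tubule cells, and they went in both directions. *Umod* in macrophage-like cells was at 250 CPM in control against 77.0 CPM in ischemia, in EC-like cells at 176 and 99.7 CPM, and in PMN-like cells at 173 and 192 CPM. *Kap*, a gene of PT, was in EC-like cells at 2928 and 1711 CPM but in podocyte-like cells at 1120 and 1754 CPM. *Lcn2*, which injured distal tubules make and neutrophils store, was at 55.1 and 172 CPM in EC-like cells, at 27.6 and 171 CPM in macrophage-like cells and at 6.35 and 133 CPM in podocyte-like cells. *Havcr1*, the kidney injury molecule of PT, was at 1.80 and 104 CPM in EC-like cells and at 7.18 and 418 CPM in PT-like cells. The number of *Spp1* UMIs for each *Clu* UMI in ischemia was 15.96 (15.3 to 16.7) in EC-like cells, 14.6 (12.6 to 16.9) in T cell-like cells, 14.0 (12.6 to 15.6) in PMN-like cells, 18.0 (17.1 to 19.0) in macrophage-like cells and 15.69 (15.35 to 16.04) in the low-depth cluster 0. It was 11.1 (9.18 to 13.5) in podocyte-like cells and 12.1 (11.3 to 13.0) in pericyte-like cells. Both intervals overlapped those of T cell- and PMN-like cells and lay below that of EC-like cells. The number was 182 (177 to 186) in PT-like, 10.9 (10.8 to 10.9) in TAL-like and 2.10 (2.08 to 2.11) in CD-PC-like cells. The macrophage-like value took in a sub-cluster led by PT genes, at 227 (163 to 326). The other sub-clusters of that class ran from 6.09 to 20.4 in ischemia. How much of the *Spp1* of leukocytes and endothelium was free RNA from tubules was not tested.

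The share of cells with an *Spp1* UMI did not set PT-like cells clearly apart from classes outside the tubule. After thinning each cell to 1000 UMIs, it was 61.1% in control and 97.3% in ischemia in PT-like cells (median depths 14093 and 16823 UMIs before thinning). It was 53.0% and 86.8% in podocyte-like cells (4567 and 2248 UMIs), taken as cells that should lack the gene, and 42.5% and 97.4% in the B cell-like sub-cluster (3618 and 3804 UMIs). Thinning left out 135 control and 79 ischemia PT-like cells. Without thinning the PT-like shares were 98.0% and 100%. The PT-like share in ischemia was thus no higher than in B cell-like cells, although the PT-like CPM was above the 5025 CPM of the latter. In control, the thinned shares of the other tubule classes ran from 75.4% in CD-PC-like to 96.4% in TAL-like cells. Their intervals lay above those of podocyte- and B cell-like cells. In ischemia the intervals of all tubule classes overlapped that of B cell-like cells.

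**Figure D2:**
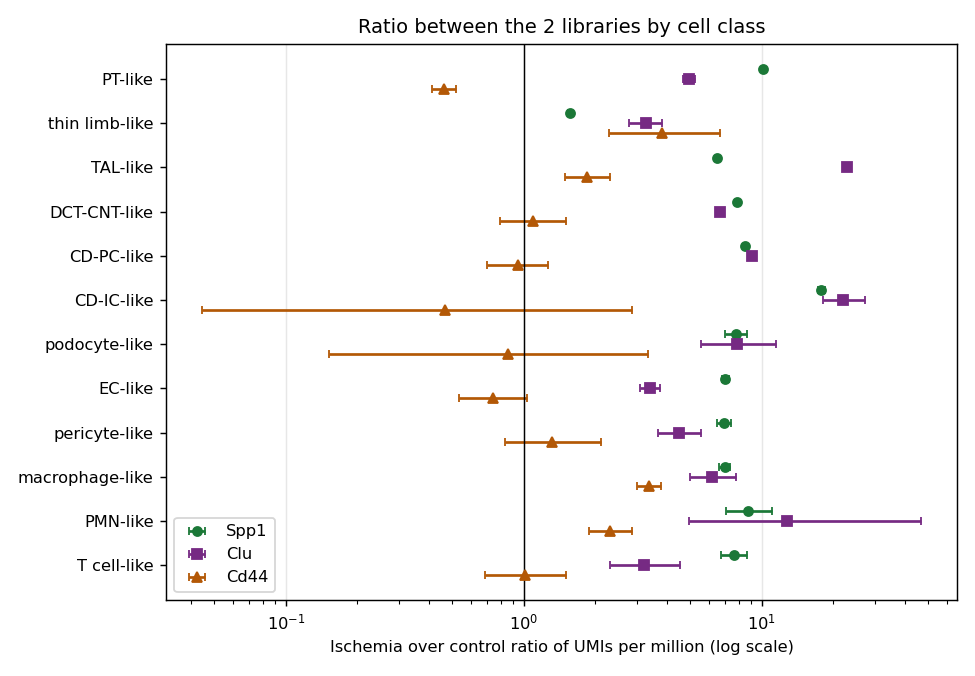
Ischemia over control ratio of CPM (x axis, log scale) of *Spp1* (green circles), *Clu* (purple squares) and *Cd44* (brown triangles) in each cell class (y axis), with bars for 95% exact intervals of counting error and a line at 1. *Spp1* and *Clu* lie right of the line in 12 of 12 classes, with *Clu* at 22.7 in TAL-like and 22.1 in CD-IC-like cells, whereas *Cd44* lies left of it in PT-like cells at 0.461. The *Clu* ratio of PMN-like cells, 12.7 (4.93 to 47.0), rests on 4 control UMIs.

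*Clu* was a gene of the distal nephron and collecting duct in both libraries. It was highest in CD-PC-like cells, at 1536 CPM in control (454 cells) and 14054 CPM in ischemia (391 cells), a ratio of 9.15 (8.99 to 9.31), which was 22.7 when the cells were chosen by a marker gate in place of clusters. CD-PC-like cells held 38.8% of all *Clu* UMIs in control and 43.8% in ischemia. DCT-CNT-like cells came next, at 1314 and 8820 CPM, a ratio of 6.71 (6.58 to 6.85). By thinned cells, the share with a *Clu* UMI was 46.5% in control and 92.3% in ischemia in CD-PC-like cells, and 48.9% and 88.7% in DCT-CNT-like cells.

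In the TAL the *Clu* ratio was higher than in the other large tubule classes, although this order depended on the cell filter. TAL-like cells were at 290 CPM in control against 6603 CPM in ischemia, a ratio of 22.7 (21.9 to 23.6), and they held 8.10% and 23.8% of all *Clu* UMIs. In control, 5 TAL-like cells held 49.2% of these UMIs, against 5.86% in ischemia, and the median cell was at 35.3 CPM in control against 4348 CPM in ischemia. The thinned share of TAL-like cells with a *Clu* UMI was 9.64% (7.19 to 12.6) in control and 87.0% (83.7 to 89.9) in ischemia, by exact Clopper-Pearson intervals. Among TAL-like cells with at most 25% mitochondrial UMIs the ratio was 10.4, since the 129 control cells under that limit were at 725 CPM and the 371 over it at 194 CPM. The CD-PC-like ratio under that limit was 10.5, so the TAL no longer stood above it, and with the marker gate the TAL-like ratio of 23.4 (22.7 to 24.2) and the CD-PC-like ratio of 22.7 (21.8 to 23.6) overlapped in their intervals. The median mitochondrial share was 30.9% in control and 24.8% in ischemia TAL-like cells, and its part in the ratio was not tested.

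*Clu* was lowest in PT-like cells, at 19.6 CPM in control against 97.1 CPM in ischemia, a ratio of 4.96 (4.68 to 5.26). PT-like cells thus combined little *Clu* with an *Spp1* level that was the lowest of the tubule classes but above those of the classes outside the tubule. CD-IC-like cells were at 95.4 and 2104 CPM, a ratio of 22.1 (18.1 to 27.1), with 63.4% of the ischemia UMIs in 5 cells. At resolution 0.6, where the class also took in the *Aqp6* cells, the CD-IC-like *Clu* ratio was 13.0 (11.8 to 14.3). Thin limb-like cells were at 96.6 and 315 CPM, a ratio of 3.25 (2.78 to 3.83), and of 5.11 with the listed genes kept in the clustering. In EC-like cells *Clu* was at 96.8 and 328 CPM, in macrophage-like cells at 42.9 and 266 CPM and in T cell-like cells at 141 and 449 CPM. The thinned share in T cell-like cells, taken as cells that should lack *Clu*, was 13.1% in control and 41.7% in ischemia (median depths 3014 and 3405 UMIs), and in B cell-like cells it was 20.0% and 25.6%. The *Clu* shares of PT-like cells (3.12% and 15.97%) were below that level. Those of CD-PC-like, DCT-CNT-like and ischemia TAL-like cells were above it. The control share of TAL-like cells was at or below it. Their control level of 290 CPM (280 to 301) was above the 141 CPM (103 to 188) of T cell-like cells. Thinning also removed more of their UMIs, as their control median depth was 19886.5 UMIs. PT-like cells (14092.5 and 16823 UMIs) and thin limb-like cells (11007 and 16694 UMIs) were also deeper than T cell-like cells. A thinned share at or below that level therefore does not tell background from expression, and this was not tested. Thin limb-like (6.80% and 30.9%), EC-like (10.6% and 35.4%) and macrophage-like cells (7.48% and 21.6%) were also no higher than T cell-like cells. The CD-IC-like share was 8.62% in control and 54.3% (39.0 to 69.1) in ischemia.

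**Figure D3:**
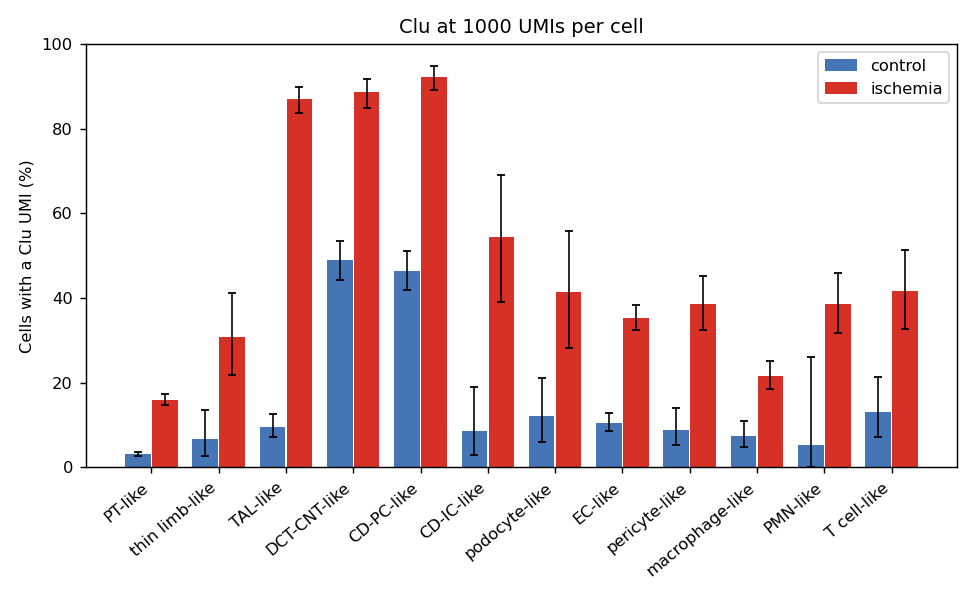
Percentage of cells with at least 1 *Clu* UMI after thinning each cell to 1000 UMIs (y axis) by cell class (x axis) in control (blue) and ischemia (red), with 95% exact Clopper-Pearson intervals. TAL-like cells stand at 9.64% and 87.0%, while PT-like cells stay at 3.12% and 15.97%.

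By level, *Cd44* was highest in PMN-like cells, with 838 CPM in control (19 cells) and 1931 CPM in ischemia (191 cells), a ratio of 2.30 (1.89 to 2.84). Of 5109 genes with at least 20 UMIs in this class, 28.1% were at least 2 times higher in ischemia. The top 5 control cells held 47.1% of its *Cd44* UMIs. Its thinned shares with a *Cd44* UMI, 63.2% (38.4 to 83.7) in control and 77.8% (71.2 to 83.5) in ischemia, overlapped in their intervals. Macrophage-like cells were at 155 CPM in control (329 cells) and 521 CPM in ischemia (625 cells), a ratio of 3.36 (2.98 to 3.79). T cell-like cells were at 147 and 149 CPM, a ratio of 1.01 (0.686 to 1.51), so that no difference was detectable. The 3 leukocyte-like classes made up 3.55% of kept control cells and 7.10% of kept ischemia cells. They held 20.3% of all *Cd44* UMIs in control and 77.8% in ischemia, while the named tubule classes, with more UMIs in all, held 58.5% and 16.3%.

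Within the macrophage-like cluster the *Cd44* level followed the kind of cell. The monocyte or infiltrating sub-cluster, led by *Chil3*, *Thbs1* and *Fn1*, was at 847 CPM in control against 963 CPM in ischemia, a ratio of 1.14 (0.937 to 1.39). It held 20 cells in control and 273 in ischemia, and 5 of the control cells held 60.7% of the UMIs. The C1q-high resident-type sub-cluster was at 94.0 CPM in 185 control cells and 170 CPM in 169 ischemia cells, a ratio of 1.81 (1.44 to 2.29). Dendritic-like cells were at 128 and 122 CPM, and B cell-like cells at 182 and 121 CPM, both with intervals of the ratio that held 1. With the sub-clusters of ischemia weighted by the UMI mix of control, the macrophage-like ratio was 1.30 in place of 3.36. *Vcan*, the gene of a hyaluronan-binding proteoglycan, was at 2.55 CPM in control against 130 CPM in ischemia in the macrophage-like cluster.

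*Spp1* did not follow *Cd44* among these sub-clusters. It was at 506 and 3531 CPM in the monocyte or infiltrating cells and at 561 and 2167 CPM in the C1q-high cells, in both cases below the 5240 CPM of EC-like cells in ischemia. The C1q-high cells had a ratio of 3.86 (3.54 to 4.22), lower than that of the B cell-like cells (7.13, 5.91 to 8.66). Depth differed as well, with medians of 5287 and 8882 UMIs in C1q-high and of 3618.5 and 3804 UMIs in B cell-like cells. In ischemia the median was 9260 UMIs in monocyte or infiltrating cells and 4255 UMIs in EC-like cells. The part of depth in these CPM differences was not tested. An unnamed sub-cluster with tubule genes among its leading genes was at 17196 CPM in ischemia, and the sub-cluster of PT genes at 16601 CPM. When the B cell and tubule gene sub-clusters were left out, the macrophage-like *Spp1* ratio was 5.08.

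**Figure D4:**
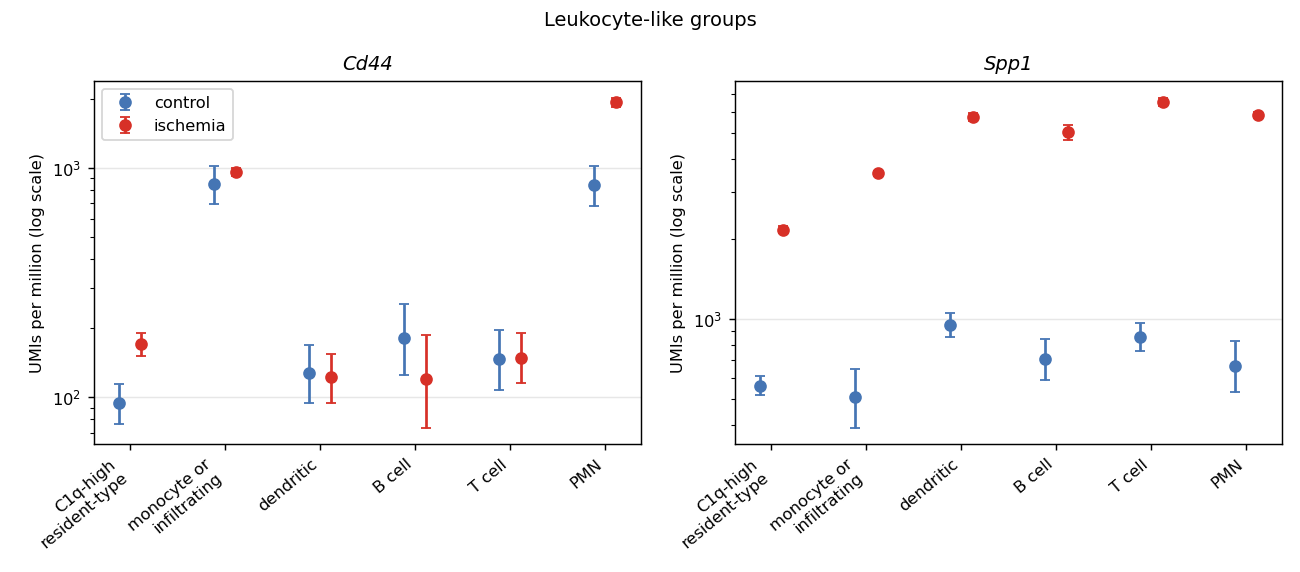
Level of *Cd44* (left) and *Spp1* (right) in CPM (y axis, log scale) in 4 sub-clusters of the macrophage-like cluster and in T cell- and PMN-like cells (x axis), in control (blue) and ischemia (red), with 95% exact Poisson intervals. *Cd44* in monocyte or infiltrating cells is at 847 and 963 CPM, and *Spp1* is higher in ischemia in all 6 groups.

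Outside the leukocytes the *Cd44* level was low in each class. In PT-like cells it was lower in the ischemia library, at 13.7 CPM in control (984 UMIs) and 6.33 CPM in ischemia (432 UMIs), a ratio of 0.461 (0.411 to 0.517). The ratio was below 1 in all 4 PT-like clusters, between 0.426 and 0.514. The low-depth cluster 0 was lower in the same direction, at 44.0 and 27.4 CPM. In PT-like cells *Spp1* and *Clu* were thus at least 2 times higher and *Cd44* at least 2 times lower in ischemia, against 8.28% of 15309 genes higher and 4.74% lower in these cells. The thinned *Clu* shares of PT-like cells were below those of T cell-like cells, and whether this *Clu* difference belongs to the cells themselves was not tested. The thinned shares with a *Cd44* UMI were 2.21% and 0.862% in PT-like cells, and 1.72% in control with 0 of 46 cells in ischemia in CD-IC-like cells. These classes were chosen as the ones to compare other shares with, so their own shares do not show whether they express *Cd44*. PT-like cells held 44.0% of all *Cd44* UMIs in control and 7.12% in ischemia. Whether the PT-like counts came from these cells or from free RNA was not tested.

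TAL-like cells were at 12.02 CPM of *Cd44* in control (124 UMIs) and 22.2 CPM in ischemia (279 UMIs), a ratio of 1.85 (1.49 to 2.30). The top 5 cells held 24.0% of the ischemia UMIs, and the ratio was 1.22 when the cells were chosen by a marker gate in place of clusters. Thin limb-like cells were at 9.16 and 34.9 CPM, from 18 and 98 UMIs, with 45.9% of the latter in 5 cells. In DCT-CNT-, CD-PC-, CD-IC-, podocyte-, EC- and pericyte-like cells the interval of the ratio held 1, although in CD-PC-like cells chosen by the marker gate it was 0.520 (0.290 to 0.925). Across the 12 classes, the *Cd44* interval lay above 1 in 4, below 1 in 1 and held 1 in 7.

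PT-like cells were also divided by *Havcr1*, after thinning to 1000 UMIs. In ischemia, the 641 cells with a *Havcr1* UMI were at 20423 CPM of *Spp1* and the 2145 cells without one at 16726 CPM. Their *Clu* was at 108 and 91.5 CPM, with 211 of the 1840 *Clu* UMIs of the cells with *Havcr1* in 1 cell. Their *Cd44* was at 5.10 (4.08 to 6.29) and 6.70 (6.01 to 7.45) CPM, with overlapping intervals. In control, 20 PT-like cells had a *Havcr1* UMI. These were at 8702 CPM of *Spp1* (8392 to 9021) against 1706 CPM in the other 3729 cells, with 1227 of their 2966 *Spp1* UMIs in 1 cell. Of their 12 UMIs of *Krt20*, another gene of injured tubule, 9 were in 1 cell, and of their 29 *Cd44* UMIs, 27 were in 1 cell, so no level of either is read from them. A cell without a *Havcr1* UMI after thinning may hold one before it. Without thinning, 1926 ischemia cells had a *Havcr1* UMI (median depth 25881 UMIs) and 939 had none (7556 UMIs). Their *Spp1* was at 19267 and 11333 CPM, the same order as after thinning. The order of *Clu* was reversed, at 92.6 CPM with *Havcr1* and 115 CPM without, with intervals that did not overlap. *Cd44* was at 5.79 (5.16 to 6.46) and 8.45 (6.99 to 10.1) CPM, so its intervals no longer overlapped. The *Clu* order and the *Cd44* difference thus depended on thinning, and the part of depth in this was not tested.

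Other genes of the 3 proteins' pathways were taken from a list of 45. Over all kept cells, 13 of the 40 listed genes with at least 20 UMIs were at least 2 times higher in ischemia and 1 was at least 2 times lower, *Lrp2*, against 10.1% and 4.77% of 18925 genes. In PT-like cells, 5 of 31 were higher and 3 lower, against 8.28% and 4.74% of 15309 genes. In TAL-like cells, 10 of 26 were higher and 4 lower, against 9.72% and 8.42% of 12834 genes. In macrophage-like cells, 7 of 32 were higher and 5 lower, against 6.71% and 7.08% of 11515 genes. None of the relatives of osteopontin on the list (*Ibsp*, *Dmp1*, *Dspp* and *Mepe*) reached 20 UMIs.

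Among the receptors of osteopontin, *Itgav*, which encodes the alpha V integrin chain, was at 127 CPM in control against 433 CPM in ischemia in TAL-like cells, a ratio of 3.40. *Itgb6*, a beta chain that pairs with it in epithelium, was at 141 and 342 CPM there, a ratio of 2.43. In PT-like cells *Itgav* was at 77.9 and 96.1 CPM, under the 2-fold limit, and in macrophage-like cells at 117 and 117 CPM. Of the 7 receptor genes with at least 20 UMIs in TAL-like cells, 3 were at least 2 times higher, the third being *Itga5* with 1 and 28 UMIs, and none was at least 2 times lower. In DCT-CNT-like cells *Itgav* was at 129 and 465 CPM and *Itgb6* at 56.7 and 176 CPM, so these differences were not limited to the TAL.

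Of the genes that tie CD44 to the cell skeleton and to hyaluronan, *Msn*, which encodes moesin, was at 72.1 and 215 CPM over all kept cells, a ratio of 2.98, and at 80.3 and 419 CPM in TAL-like cells, a ratio of 5.23. *Ezr*, which encodes ezrin, was at 233 and 301 CPM in TAL-like cells. *Cemip*, needed for hyaluronan breakdown, was at 2.04 and 21.2 CPM in TAL-like cells, a ratio of 10.4 from 21 and 266 UMIs. In macrophage-like cells *Cd74*, the invariant chain of antigen presentation and a partner of CD44, was at 13262 and 5030 CPM, a ratio of 0.379. It was at least 2 times lower in the C1q-high sub-cluster but not in the monocyte or infiltrating one. Among the other classes, *Cd74* was at least 2 times lower in thin limb- and pericyte-like cells. In PT-, TAL-, PMN- and T cell-like cells it was at least 2 times higher. *Mmp7*, a matrix protease that cuts osteopontin, had 14 UMIs in control and 525 in ischemia over all kept cells.

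Receptors of clusterin went in both directions. *Lrp2*, which encodes megalin, the uptake receptor of the PT brush border, was at 1347 CPM in control against 629 CPM in ischemia in PT-like cells, a ratio of 0.467. It was also at least 2 times lower in every other named class except CD-IC-like cells, those outside the tubule included. Whether its counts outside PT were free RNA was not tested. *Lrp8*, which encodes a related lipoprotein receptor, was at 0.390 and 3.60 CPM in PT-like cells, from 28 and 246 UMIs. In TAL-like cells *Lrp8* was at 1.94 and 13.5 CPM. Of the 3 complement regulators and the 2 apolipoproteins on the list, none was past 2-fold over all kept cells, but *Apoe*, which encodes apolipoprotein E, was at 161 and 66.4 CPM in TAL-like cells, a ratio of 0.413. The complement regulator *Cd59a* was at least 2 times lower in TAL-, thin limb- and macrophage-like cells. *Vtn* was so in pericyte-like cells and *Cd55* in pericyte- and EC-like cells, while *Cd55* was at least 2 times higher in the C1q-high sub-cluster.

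**Figure D5:**
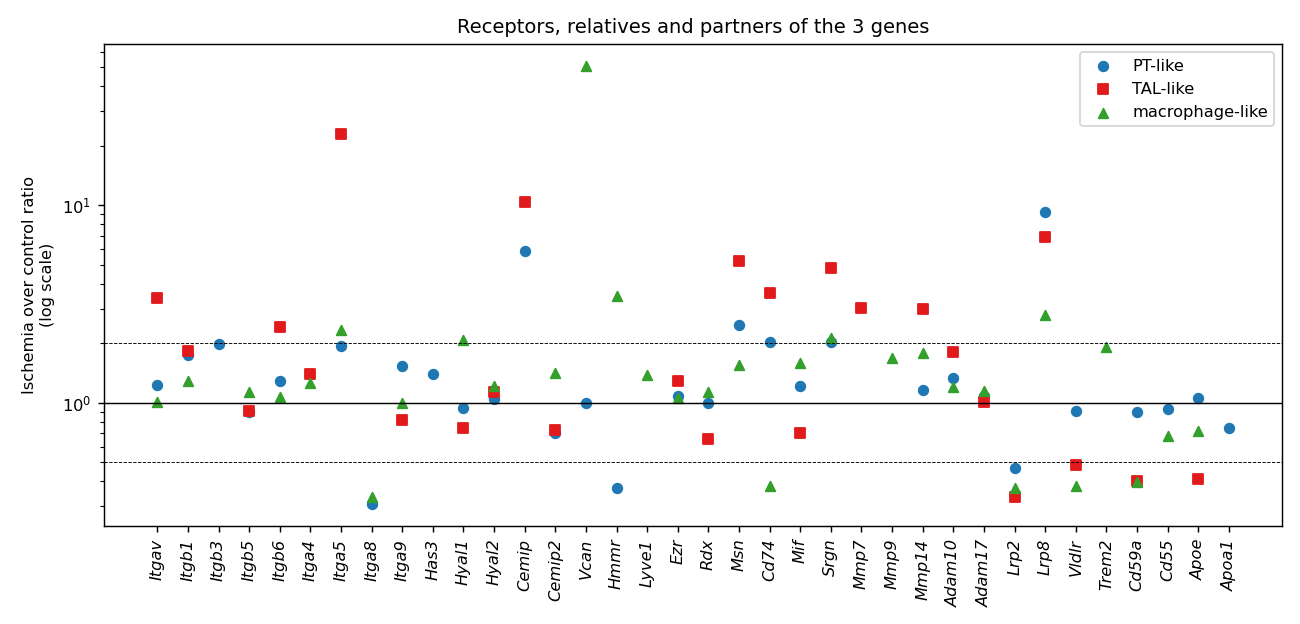
Ischemia over control ratio (y axis, log scale) of listed genes (x axis, grouped by role) in PT-like (blue circles), TAL-like (red squares) and macrophage-like (green triangles) cells, for genes with at least 20 UMIs in both libraries together and 1 or more in each. The dashed lines mark a 2-fold difference; *Itgav* and *Msn* in TAL-like cells stand at 3.40 and 5.23, and *Lrp2* is under the lower line in all 3 classes.

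The pattern of each gene was compared with that of 12478 genes with at least 500 UMIs over 22 points, each a class of at least 50 cells in 1 library. By Pearson's r of log2(CPM + 10), the genes most like *Spp1* were *Plpp2* (0.91), *Krt8* (0.89), *Sox9* (0.81), *Lcn2* (0.79) and *Dnajc5* (0.79). Those most like *Clu* were *Calml3* (0.91), *Lcn2* (0.86), *Sprr1a* (0.85), *Cdh3* (0.84) and *Gm49123* (0.82). Those most like *Cd44* were *AB124611*, *Snx20*, *Plek*, *Cd244a* and *Antxr2*, at 0.95 to 0.96. By Spearman's rank correlation these last 5 genes were lower, from 0.43 for *Cd244a* to 0.86 for *Antxr2*. *Clu* was at 0.72 with *Spp1*, the 33rd gene in that order, and *Cd44* was at -0.17 with *Spp1*. The points share their library and its depth, and these values are a description.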

How the data were processed

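Whole kidneys were digested and captured on a 10X Chromium system (the labels name the 3' v2 kit), and per the labels the authors made the deposited UMI count matrices, 1 per library, with Cell Ranger 7.0.0 on mm10. The counts are unnormalized, and the study took cells above 150000 UMIs as likely doublets, a limit also used here. Members and lists were chosen with earlier results of these data known.

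Cells were filtered as stated in the report, log-normalized to 10000, integrated by anchors over 2000 variable genes and clustered on 30 principal components at resolution 0.3 (Seurat 5.3.0, R 4.3.3); levels use the counts as deposited, not integrated values. A cluster took the class with the highest mean marker score if at least 3 of its markers were detected and its top 10 genes held more of them than of any other class. Scrublet (scanpy 1.11.5) called 0 cells in either library, so it had not worked and doublets stayed in. CPM, intervals and thinning to 1000 UMIs (seed 42) were computed with scipy 1.17.1. Floors are 3 counts. Scripts were tested on simulated data. The text names the members, listed genes with the largest ratios, injury and marker genes and the 5 genes most like each member; *Itgav*, *Itgb6*, *Itga5*, *Ezr* and *Kap* were chosen after their values were seen. Alternatives were other cell filters, resolution 0.6, a marker gate, listed genes kept in clustering and the mean of each cell's CPM.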

Additional observations from a re-analysis of the deposited data

Results flagged for a closer look

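Cells and barcodes outside the named classes carried the same direction for *Spp1* and *Clu*. The *Spp1* ratio was 9.60 in unnamed cluster 0, 6.58 in cluster 4, whose leading genes mix TAL and DCT, and 6.82 in cluster 16. The *Clu* ratio was 7.14 in cluster 0, 7.63 in cluster 4 and 22.2 in cluster 16, where 5 cells held 90.7% of the ischemia UMIs. Barcodes removed by the cell filters were at 910 CPM of *Spp1* in control and 7012 CPM in ischemia, and at 87.5 and 821 CPM of *Clu*.

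*Cd44* in PT-like cells, with a ratio of 0.461, went opposite to TAL-, thin limb-, macrophage- and PMN-like cells. At resolution 0.6 the TAL-like *Cd44* ratio was 1.49 (1.24 to 1.79), but a second TAL-like cluster there was at 0.675 (0.436 to 1.03). Unnamed cluster 4 was at 0.759 (0.533 to 1.07). The difference between classes was not tested, as there is 1 library per condition.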

How the results depend on the processing

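The main ratios were those over all kept cells and in PT-like cells, of *Spp1* and *Clu* in TAL-like cells and of *Spp1* and *Cd44* in macrophage-like cells. Most of them lay far from 1, so their side of 1 says little about how far they moved. They stayed on the same side of 1 in 66 of 66 alternatives. The other class ratios did so in 96 of 99, the exceptions being *Cd44* in CD-PC-like cells, from 0.944 to 1.01 with at most 25% mitochondrial UMIs and to 1.04 at resolution 0.6, and in DCT-CNT-like cells, from 1.09 to 0.965 by the mean of each cell's CPM. With at most 25% mitochondrial UMIs, *Spp1* was 7.94 over all kept cells, 10.2 in PT-like, 4.78 in TAL-like and 8.04 in macrophage-like cells, *Clu* was 9.25, 4.59 in PT-like and 10.4 in TAL-like cells, and *Cd44* was 2.96 over all kept cells. With at least 1000 UMIs per cell, *Clu* was 9.25 over all kept cells. By the mean of each cell's CPM, *Spp1* was 7.62, 9.52 in PT-like and 6.28 in TAL-like cells, *Clu* 7.12 and *Cd44* 2.37 over all kept cells. At resolution 0.6 *Spp1* in TAL-like cells was 6.37, and with listed genes kept in clustering 6.45. With a marker gate, *Spp1* was 9.81 in PT-like, 6.71 in TAL-like and 6.45 in macrophage-like cells, and *Cd44* 0.524 in PT-like cells. The next 3 were chosen after seeing the data. After leaving out the 8% of cells of top doublet score, *Spp1* was 7.94, 10.9 in PT-like, 6.35 in TAL-like and 8.29 in macrophage-like cells, and *Clu* 21.7 in TAL-like cells. Without cluster 0, *Spp1* was 7.66 and *Cd44* 2.89 over all kept cells. Without the B cell and tubule gene sub-clusters, *Spp1* was 5.08 in macrophage-like cells. Removing Scrublet's calls gave no other value, as there were none. No paired analysis was possible because there is 1 library per condition. Control PMN-like and monocyte-like cells number 19 and 20, which limits their control levels.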

Other observations

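Barcodes removed by the filters were at 29.9 CPM of *Cd44* in control against 19.8 CPM in ischemia, the same direction as in PT-like cells and cluster 0. Over the tubule classes other than PT, *Cd44* was at 10.2 CPM in control against 16.04 CPM in ischemia, a ratio of 1.57 (1.37 to 1.81). Among these classes, the interval lay above 1 only in TAL- and thin limb-like cells. There, 5 cells held 24.0% and 45.9% of the ischemia UMIs. In DCT-CNT-, CD-PC- and CD-IC-like cells the interval held 1. At a finer resolution of 0.6, type A intercalated cells led by *Aqp6* separated from CD-PC-like cells and were at 3568 CPM of *Spp1* in control against 46147 CPM in ischemia, a ratio of 12.9 (12.5 to 13.4), and their *Clu* ratio was 9.87 (8.87 to 11.01).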
